A study of Mus musculus with 12 samples.

Results

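OT-I CD8 T cells taken from melanomas at day 4 after transfer were compared with OT-I cells cultured with antigen, to ask how transcripts differ between 2 early settings of T cell activation. The comparison rests on 6 of the series' 12 bulk RNA-seq libraries, 3 of day 4 tumour cells and 3 of effector cells, and on all 16426 genes that passed a filter on low counts out of 55401 gene identifiers. OT-I is a transgenic T cell receptor that recognises an ovalbumin peptide on H-2Kb, so the cells of each group share 1 specificity. Day 4 cells, which the labels call exhausted, were transferred OT-I cells of the CD44-positive gate, sorted from B78ChOVA tumours of C57BL/6J hosts. B78ChOVA is a mouse melanoma line that carries mCherry and ovalbumin, and the hosts keep their own immune cells. Effector cells had been cultured with antigen for 5 days, with no host and no tumour. The OT-I genotype is shared by both groups, and no further treatment is described for either. Host, surroundings, sort gate, duration and the recovery of cells from tissue or culture thus differ together between the groups and cannot be told apart. Naive OT-I cells from lymph nodes of tumour-free mice and OT-I cells of day 14 tumours, with 3 libraries each, entered the same fit and are quoted here as levels only.

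CD8 T cells that meet antigen divide, take up nutrients, switch from a naive programme kept by TCF-1, LEF-1 and KLF2 to effector genes, and leave lymph nodes. Engagement of the receptor induces immediate early factors such as FOS and EGR proteins and the nuclear receptors NR4A1 to NR4A3 within hours. Antigen that persists, as in tumours, is known to go with TOX and with inhibitory receptors such as PD-1, TIM-3 and TIGIT, a state called exhaustion.

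Levels are CPM, counts relative to TMM-scaled library sizes, and in lists of 3 values the libraries stand in the order of their replicate numbers. Day 4 libraries had 13603863 to 16056124 gene counts and effector libraries 12181783 to 14499885. Log2 CPM of replicate libraries correlated across genes with r of 0.970 to 0.979 within these groups, against 0.819 to 0.845 over the 9 pairs of a day 4 with an effector library. Genes are not independent replicates. A log2 fold change of day 4 over effector cells (log2FC) is given ± its SE, and a gene is called at an edgeR adjusted p under 0.05. Nothing in the labels says that replicates came from separate mice or cultures, so p-values measure only the spread between these samples, which may be technical.

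The T cell label held in both groups: Cd8a, a chain of the CD8 co-receptor (ENSMUSG00000053977.13, chromosome 6, 71373427 to 71379173, GRCm38), had 897, 1058 and 1133 CPM in day 4 libraries, against 1582, 1384 and 1599 CPM in effector libraries. Set against naive libraries, those labelled effector were higher for some transcripts of activated T cells and not for others. Ctla4 had 266, 254 and 367 CPM in effector libraries, against 0.739, 1.59 and 1.30 CPM in naive libraries, and Il2ra, a chain of the IL-2 receptor, 101, 193 and 188 CPM against 0.961, 1.75 and 1.68 CPM. They also carried S1pr1, which activated cells usually lower, at 334, 244 and 264 CPM in effector libraries, against 360.5, 371 and 418 CPM in naive libraries. Dusp4, a phosphatase that antigen signals induce, had 0.647, 1.12 and 0.774 CPM in effector libraries, against 0.517, 1.04 and 0.765 CPM in naive libraries, and Fosb, an immediate early factor, 0.216, 0.172 and 0.232 CPM against 0.369, 0.239 and 0.0765 CPM. Effector libraries lay below naive libraries for Prf1, which encodes perforin, and above them for Tcf7, which resting cells express. The values thus go both ways with respect to the effector label, which is used here as given. Effector replicate 2 stood apart from the other 2 effector libraries. Mki67, a nuclear protein of cycling cells, had 42.8, 579.6 and 60.8 CPM in effector libraries, and Gzmb, which encodes granzyme B, 10.9, 189 and 32.3 CPM. Several results are therefore also given without this library.

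Markers of other cell types were higher in day 4 libraries for the melanoma, macrophage, dendritic cell and fibroblast lists. All 10 melanoma markers rose, with summed levels of 887 to 1324 CPM in day 4 and 44.1 to 46.4 CPM in effector libraries, and Tyrp1, Tyr and Sox10 had no count in any effector library. Of 18 macrophage and monocyte markers, 15 were tested and 14 rose, with sums of 65.8 to 144 CPM in day 4 and 6.19 to 10.5 CPM in effector libraries, and the highest sum was in day 4 replicate 3. Adgre1, which encodes F4/80, had 0.660, 0.240 and 2.20 CPM in day 4 libraries, against 0, 0 and 0.0774 CPM in effector libraries (46 against 1 count). Csf1r, the receptor of a macrophage growth factor, had 0.880, 0.961 and 4.61 CPM in day 4 libraries, against 0.216, 0 and 0.0774 CPM in effector libraries (97 against 4 counts). Other members were more abundant: Cd68 had 15.8, 17.8 and 21.4 CPM in day 4 libraries, against 4.89, 6.37 and 1.70 CPM in effector libraries, Apoe, an apolipoprotein, 39.6, 39.9 and 55.9 CPM in day 4 libraries, against 4.31, 3.27 and 3.40 CPM in effector libraries, and Lyz2, the lysozyme of myeloid cells, 4.33, 2.28 and 24.7 CPM in day 4 libraries, against 0.0719, 0 and 0 CPM in effector libraries. Dendritic cell and MHC class II markers had 6 of 8 tested genes higher and none called lower, led in counts by Cd74, the invariant chain (78.9, 91.1 and 81.98 CPM in day 4 libraries, against 1.01, 2.32 and 4.10 CPM in effector libraries). That list summed to 145 to 191 CPM in day 4 and 9.99 to 24.5 CPM in effector libraries. Fibroblast markers had 5 of 7 higher (sums of 165 to 299.9 CPM in day 4 and 0.935 to 1.70 CPM in effector libraries), most of it from Fn1, fibronectin, which had 112, 214 and 186 CPM in day 4 libraries, against 0.144, 0.344 and 0.464 CPM in effector libraries. Sparc was next, with 51.2, 61.0 and 55.3 CPM in day 4 libraries. Which cells gave the reads of Fn1 and Sparc was not tested. Dcn and Lum, the other markers of the list, did not pass the filter. The collagen genes Col3a1 (0.293, 10.6 and 0.401 CPM) and Col1a2 (0.0733, 6.07 and 0.334 CPM) had most of their day 4 reads in replicate 2. Without that library the ratio of Col3a1 went from 159 to 13.4 and that of Col1a2 from 45.5 to 4.03. Of the NK cell markers 2 of 3 tested rose, Ncr1 had no count in either group, and the list summed to 121 to 179.6 CPM in day 4 and 15.2 to 27.9 CPM in effector libraries, largely through Eomes, which CD8 T cells express too. The CD4 and Treg list had 4 of 7 higher and 1 lower (1363 to 1439.7 CPM in day 4 and 427 to 565 CPM in effector libraries). Most of these sums came from Ctla4, Ikzf2 and Tnfrsf4. Foxp3, the factor of Tregs, was the 1 that fell, and it was called in 17 of 18 alternatives. It had 2.27, 1.14 and 2.61 CPM in day 4 libraries, against 5.75, 6.80 and 3.02 CPM in effector libraries. Cd40lg and Zbtb7b were not called. Cd4 itself rose, with 1.25, 4.63 and 2.20 CPM in day 4 libraries, against 0.0719, 0.946 and 0.542 CPM in effector libraries (log2FC 2.40 ± 0.69, edgeR adjusted p = 0.00618). The log2FC of Cd4 was 1.81 without day 4 replicate 2 and 3.13 without effector replicate 2. B cell markers had 2 of 7 higher and 3 lower, and their sums of 393 to 432 CPM in day 4 and 1243 to 1427 CPM in effector libraries were mostly Ighm, which was lower (log2FC -1.88 ± 0.32, edgeR adjusted p = 0.000727). Endothelial markers gave 1 higher, Vwf, and 1 lower, Pecam1, of 2 tested (sums of 65.4 to 88.4 CPM in day 4 and 177 to 187 CPM in effector libraries). Erythroid markers gave 2 of 4 higher (sums of 1.56 to 11.002 CPM in day 4 and 1.89 to 2.66 CPM in effector libraries), and no neutrophil marker of 8 passed the filter (sums of 0.0733 to 1.20 CPM in day 4 and 0 to 0.344 CPM in effector libraries). S100a8, S100a9, Elane, Retnlg and Slc4a1 had no count in day 4 libraries. In the fit of the 6 libraries alone, 7 macrophage and 2 fibroblast markers rose and no erythroid marker. At most 1 erythroid marker rose when day 4 replicate 1 or 3 or any effector library was left out. Leaving out effector replicate 2 or 3 left 3 fibroblast markers. In bulk samples, fewer cells of a type and less RNA per cell cannot be told apart, and the part of these cells in any result that follows was not tested.

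**Figure D1:**
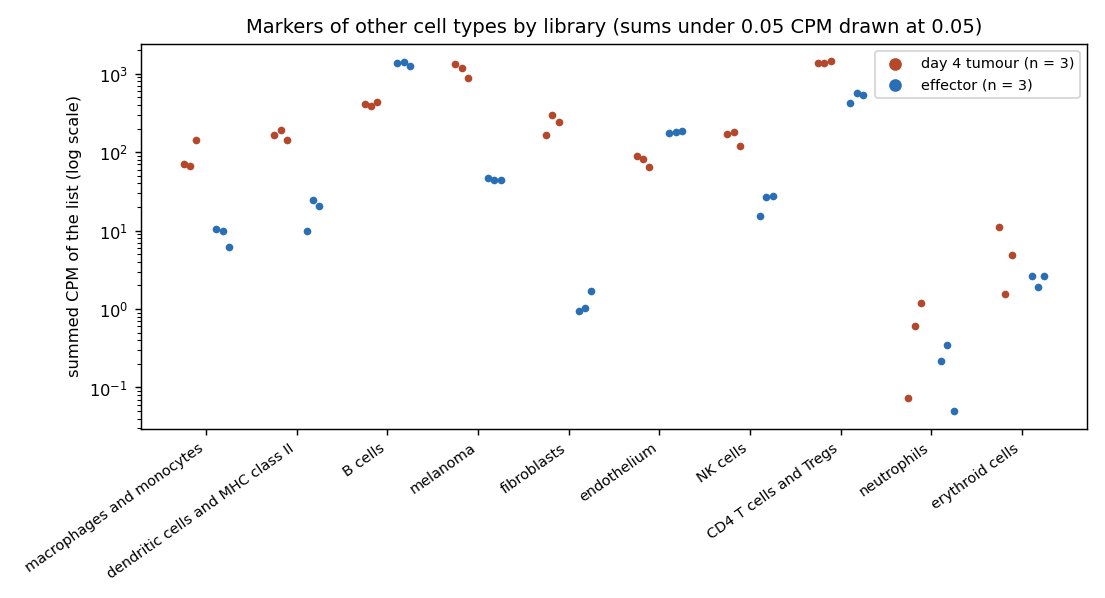
Summed CPM of each marker list (log axis) in the 3 day 4 tumour libraries (left, red) and the 3 effector libraries (right, blue), one point per library. Melanoma, fibroblast, macrophage and dendritic cell sums lay higher in all 3 day 4 libraries, and B cell and endothelial sums lay higher in the effector libraries.

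Most tested genes differed between tumour and culture. By edgeR's quasi-likelihood test at a Benjamini-Hochberg adjusted p under 0.05, 10174 of 16426 genes were called (61.9%), 5372 higher (32.7%) and 4802 lower (29.2%) in day 4 cells. Of these, 6408 had at least a 2-fold difference (39.0% of genes tested). At 16-fold or more, the split was 1148 genes higher and 189 lower. CPM ranges of the groups did not overlap for 11097 genes (67.6%), 5865 above and 5232 below the effector range. For 5129 genes (31.2%) the 95% interval of the log2 fold change lay inside -1 to 1. The median log2 fold change over all genes tested was 0.06. Leaving out effector replicate 2 gave 9794 called genes, 5245 higher and 4549 lower. The counts of members of each gene list are to be read against these shares.

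**Figure D2:**
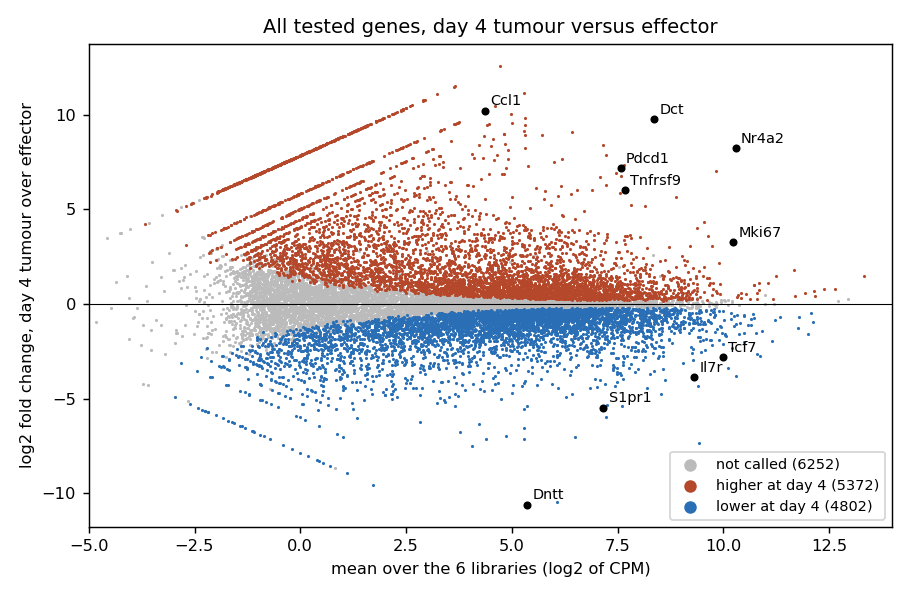
Log2 fold change of day 4 tumour over effector cells against mean log2 CPM for the 16426 tested genes, coloured by call, with 10 genes named. Genes of large difference lie more often above 0, and the straight streaks at low levels are genes with few or no counts in one of the groups.

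The highest fold changes among abundant protein-coding genes belonged to a mixed set of 10. It included Tyrp1 (melanocyte tyrosinase-related protein, ENSMUSG00000005994.14, chromosome 4, 80834123 to 80851719), which had 48.4, 56.5 and 54.2 CPM in day 4 libraries and no count in effector libraries (at least 683-fold higher against a floor of 3 counts over the group, edgeR adjusted p = 0.000347). Dct, another melanocyte enzyme (ENSMUSG00000022129.4, chromosome 14, 118012790 to 118052244), had 789, 698 and 479 CPM in day 4 libraries, against 0.575, 0.774 and 0.928 CPM in effector libraries (log2FC 9.75 ± 0.79, edgeR adjusted p = 7.6e-06). Both stand in the melanoma list. Among genes of T cell biology, Ccl1 (ENSMUSG00000020702.13, chromosome 11, 82176657 to 82305690), a chemokine that binds CCR8, had 32.6, 39.3 and 51.5 CPM in day 4 libraries, against 0, 0.0860 and 0 CPM in effector libraries (1870 against 1 count; ratio 1589.6, 95% interval 285 to 62817). Ccr8 itself (ENSMUSG00000042262.5, chromosome 9, 120092114 to 120094906), a chemokine receptor of skin-homing and tumour T cells, had 33.2, 46.1 and 53.3 CPM in day 4 libraries, against 0.144, 0 and 0 CPM in effector libraries (2019 against 2 counts; ratio 858, 95% interval 237 to 7091). Ligand and receptor were thus both near 0 in each effector library. Zc3h12c (ENSMUSG00000035164.8), of the Regnase family of RNA-degrading proteins, had 72.4, 91.5 and 72.9 CPM in day 4 libraries, against 0.0719, 0.0860 and 0.0774 CPM in effector libraries (ratio 1020.3, 95% interval 349 to 4950.0). Penk (ENSMUSG00000045573.9), the proenkephalin precursor of opioid peptides, had 60.4, 71.1 and 61.2 CPM in day 4 libraries, against 0.0719, 0.0860 and 0.0774 CPM in effector libraries (ratio 828, 95% interval 283 to 4019.8).

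The other members of the set were Car6 (ENSMUSG00000028972.11), a secreted carbonic anhydrase (ratio 3031, 95% interval 544 to 119759.7), Nrgn (ENSMUSG00000053310.11), the calmodulin-binding neurogranin (ratio 1866, 95% interval 335 to 73729), Cd63 (ENSMUSG00000025351.14), a tetraspanin of lysosomes and melanosomes (ratio 1590.4, 95% interval 285 to 62851), and Sspo (ENSMUSG00000029797.13), SCO-spondin (ratio 1238, 95% interval 342 to 10228). All 4 had between 38.5 and 86.6 CPM in each day 4 library and at most 0.0860 CPM in any effector library. These ratios turn on single reads. Without effector replicate 1, no effector count was left for Car6, Cd63 and Ccr8, with bounds of at least 645-, 338- and 365-fold, and the ratio was 790.3 for Sspo, 1191 for Nrgn and 1015 for Ccl1. Without effector replicate 2, none was left for Nrgn and Ccl1, with bounds of at least 434- and 369.7-fold. Without effector replicate 3, the ratios were 2012 for Car6, 1239 for Nrgn, 1056 for Cd63, 1055 for Ccl1 and 569.7 for Ccr8. The bound of Tyrp1 was 436-fold without effector replicate 1 and 454-fold without replicate 3.

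The 10 genes with the lowest fold changes were of several kinds. Dntt, the terminal transferase of receptor rearrangement (ENSMUSG00000025014.13, chromosome 19, 41029275 to 41059525), had 0.0733, 0.0601 and 0 CPM in day 4 libraries, against 84.4, 32.9 and 130.3 CPM in effector libraries, and its ratio of effector to day 4 levels was 1906 (2 against 3241 counts, 95% interval 527 to 15748). S1pr1 (ENSMUSG00000045092.8, chromosome 3, 115710433 to 115715072), the receptor that lets T cells leave lymphoid organs, had 7.19, 5.59 and 6.15 CPM in day 4 libraries, against 334, 244 and 264 CPM in effector libraries (44.6-fold lower, log2FC -5.48 ± 0.56, edgeR adjusted p = 3.54e-05). Itgae (ENSMUSG00000005947.11, chromosome 11, 73090583 to 73147446), the alpha chain of the CD103 integrin that holds T cells in epithelia, had 5.79, 13.3 and 8.02 CPM in day 4 libraries, against 401, 617 and 130.3 CPM in effector libraries (41.96-fold lower, log2FC -5.39 ± 0.64, edgeR adjusted p = 9.35e-05). Effector values of Itgae spread widely, and the groups still did not overlap. Pik3ip1 (ENSMUSG00000034614.14, chromosome 11, 3330401 to 3342971), an inhibitor of PI3 kinase, had 6.97, 8.71 and 6.35 CPM in day 4 libraries, against 297, 345 and 254 CPM in effector libraries (log2FC -5.34 ± 0.16, edgeR adjusted p = 5.18e-13). Kcna2 (ENSMUSG00000040724.5), a voltage-gated potassium channel, had 0.954, 2.46 and 0.534 CPM in day 4 libraries, against 247, 115 and 172 CPM in effector libraries (log2FC -7.03 ± 0.59, edgeR adjusted p = 7.72e-06; -7.85 without day 4 replicate 2). The remaining members were the transporters Slc16a5 (-7.49 ± 0.42; without day 4 replicate 3 the ratio of effector to day 4 levels was 341, 95% interval 117 to 1658) and Slc6a19 (-6.99 ± 0.43), the predicted gene Gm14085 (-7.32 ± 0.42), the IFIT-related Ifit1bl1 (-5.96 ± 0.17) and Rflnb, a filamin-binding protein (-5.54 ± 0.21), all given as log2 fold changes.

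**Figure D3:**
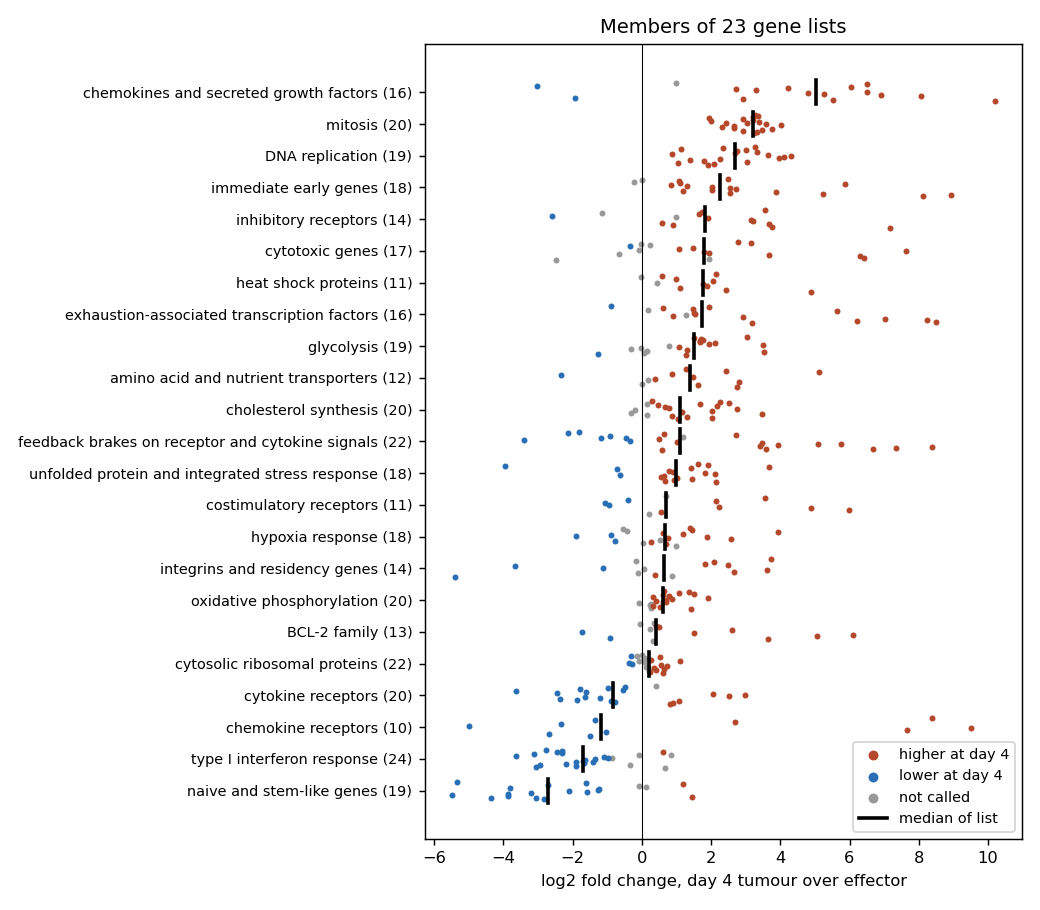
Log2 fold change, day 4 tumour over effector, of every tested member of 23 gene lists, ordered by their medians (black bars), with the number tested in brackets. Medians lay above 0 for 19 lists and below 0 for 4: naive and stem-like genes, type I interferon response, chemokine receptors and cytokine receptors.

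Of the T cell receptor complex and the proximal signalling genes, most were lower in day 4 cells. Among 16 CD8 T cell identity genes 1 rose and 13 fell (median log2 fold change -0.69), and 10 had an interval inside -1 to 1. Cd8b1, the beta chain of CD8 (ENSMUSG00000053044.8), had 283, 302 and 345 CPM in day 4 libraries, against 1256, 1025 and 1211 CPM in effector libraries (3.75-fold lower, log2FC -1.91 ± 0.10, edgeR adjusted p = 1.4e-10). Cd247, the CD3 zeta chain (-1.26 ± 0.09 as log2FC), and Lat, the adaptor of the receptor complex (-1.21 ± 0.10), fell as well, and Cd8a fell by less (-0.56 ± 0.09). Zap70, the kinase that binds the phosphorylated zeta chain, was the 1 member that rose (100.3, 102 and 105 CPM in day 4 libraries, against 61.5, 80.9 and 66.9 CPM in effector libraries, log2FC 0.56 ± 0.11, edgeR adjusted p = 0.000321). The summed level of the list was 5157 to 5999.7 CPM in day 4 and 9254 to 9543 CPM in effector libraries.

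Immediate early genes, which receptor and stress signals induce within minutes, were higher in day 4 cells. Of 18 tested members 16 rose and 0 fell, with a median log2 fold change of 2.27, and the 16 that rose were also above the effector range in every day 4 library. Fosb, an AP-1 subunit (ENSMUSG00000003545.3, chromosome 7, 19302696 to 19310051), had 163, 77.6 and 74.6 CPM in day 4 libraries, against 0.216, 0.172 and 0.232 CPM in effector libraries (485-fold higher, log2FC 8.92 ± 0.51, edgeR adjusted p = 6.1e-08). Fos (ENSMUSG00000021250.13, chromosome 12, 85473890 to 85477273) had 62.9, 68.1 and 48.7 CPM in day 4 libraries, against 0.359, 0.258 and 0 CPM in effector libraries (log2FC 8.11 ± 0.48, edgeR adjusted p = 2.08e-08; ratio 492, 95% interval 168 to 2386, over 3 counts without effector replicate 1). In both, the effector libraries were near 0. Dusp1, a phosphatase that switches off MAP kinases, had 388, 394 and 337 CPM in day 4 libraries, against 5.10, 5.42 and 8.66 CPM in effector libraries (log2FC 5.86 ± 0.27, edgeR adjusted p = 8.7e-09). Fosl2, a further AP-1 subunit, had 527, 385 and 399 CPM in day 4 libraries, against 9.49, 11.96 and 13.4 CPM in effector libraries (log2FC 5.24 ± 0.32, edgeR adjusted p = 3.31e-07). Zfp36 and Btg2, the members that did not pass, had log2 fold changes of -0.01 and -0.21. Day 4 cells were recovered from tumour tissue and effector cells from culture, and the part of this handling was not tested.

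The transcription factors linked to exhaustion moved the same way. Of 16 tested members 13 rose and 1 fell, with a median log2 fold change of 1.73. Nr4a2 (ENSMUSG00000026826.13, chromosome 2, 57106830 to 57124003), an orphan nuclear receptor induced by antigen receptor signals, had 2620.0, 2518 and 2369 CPM in day 4 libraries, against 6.40, 5.51 and 12.9 CPM in effector libraries (301-fold higher, log2FC 8.24 ± 0.28, edgeR adjusted p = 8.76e-10). Nr4a3 (ENSMUSG00000028341.9, chromosome 4, 48045153 to 48086447) had 1988, 1599 and 1808 CPM in day 4 libraries, against 11.4, 10.6 and 19.8 CPM in effector libraries (129-fold higher, log2FC 7.01 ± 0.29, edgeR adjusted p = 6.38e-09). Nr4a1 (ENSMUSG00000023034.7, chromosome 15, 101254269 to 101274795), the founding member, had 156, 122 and 147 CPM in day 4 libraries, against 1.65, 1.55 and 2.48 CPM in effector libraries (74.3-fold higher, log2FC 6.22 ± 0.29, edgeR adjusted p = 2.3e-09). The highest effector value of the 3 was 19.8 CPM, for Nr4a3. Tox (ENSMUSG00000041272.11, chromosome 4, 6686353 to 6991557), a chromatin-binding factor that exhausted cells need, had 310.3, 416 and 380.4 CPM in day 4 libraries, against 32.999, 44.1 and 44.9 CPM in effector libraries (9.08-fold higher, log2FC 3.18 ± 0.13, edgeR adjusted p = 1.02e-11). Naive libraries lay between these groups for Tox, at 112, 113 and 107 CPM, and day 14 libraries above, at 662, 774 and 721 CPM. Tox2, its relative, had 2.35, 3.12 and 4.01 CPM and no count in effector libraries (at least 40.8-fold higher, edgeR adjusted p = 4.65e-06; at least 26.05-fold without effector replicate 1 and 27.1-fold without replicate 3). Ikzf3, which encodes Aiolos, was the 1 that fell (-0.89 ± 0.09 as log2FC), and Prdm1 and Maf were not called; Prdm1 was called without day 4 replicate 1 (log2FC 1.68 ± 0.54, edgeR adjusted p = 0.031).

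Inhibitory receptors were mostly higher in day 4 cells, by very different amounts. Of 14 tested members 11 rose and 1 fell, with a median log2 fold change of 1.83, against 0.06 over all genes. Pdcd1 (ENSMUSG00000026285.7, chromosome 1, 94038305 to 94052553), the PD-1 gene, had 373, 353 and 409 CPM in day 4 libraries, against 1.37, 3.70 and 2.94 CPM in effector libraries (144-fold higher, log2FC 7.17 ± 0.30, edgeR adjusted p = 3.35e-09). Tigit (ENSMUSG00000071552.5, chromosome 16, 43648867 to 43664146), a receptor for CD155, had 300.4, 278 and 272 CPM in day 4 libraries, against 9.42, 34.7 and 22.4 CPM in effector libraries (12.9-fold higher, log2FC 3.69 ± 0.38, edgeR adjusted p = 2.47e-05). Every day 4 library was above every effector library for both. Havcr2 (ENSMUSG00000020399.14, chromosome 11, 46454935 to 46481255), the gene of TIM-3, had 106, 118 and 223 CPM in day 4 libraries, against 2.73, 28.99 and 1.78 CPM in effector libraries (13.7-fold higher, log2FC 3.77 ± 0.87, edgeR adjusted p = 0.00499). Effector replicate 2 held most of the effector signal of Havcr2: without it the log2 fold change was 6.03 (edgeR adjusted p = 9.42e-06), and a fit of the 6 libraries alone did not call it (edgeR adjusted p = 0.0562).

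Ctla4 and Lag3 differed least. Ctla4 (ENSMUSG00000026011.13, chromosome 1, 60887000 to 60915832), which competes with CD28 for its ligands, had 433, 375 and 512 CPM in day 4 libraries, against 266, 254 and 367 CPM in effector libraries (1.49-fold higher, log2FC 0.57 ± 0.17, edgeR adjusted p = 0.0119). Lag3 (ENSMUSG00000030124.2, chromosome 6, 124904361 to 124911705), a receptor for MHC class II, had 50.5, 70.3 and 68.1 CPM in day 4 libraries, against 16.7, 30.3 and 53.6 CPM in effector libraries (log2FC 0.91 ± 0.36, edgeR adjusted p = 0.0482), and the groups overlapped. Lag3 lost its call in 10 of 18 alternatives (adjusted p 0.000382 to 0.126 over all of them), among them leaving out day 4 replicate 2 (edgeR adjusted p = 0.101), day 4 replicate 3 (0.0977) or effector replicate 2 (0.126). Vsir (ENSMUSG00000020101.14), which encodes VISTA, a receptor of resting T cells, was the 1 member that fell (36.5, 32.98 and 27.99 CPM in day 4 libraries, against 199, 203 and 184 CPM in effector libraries, log2FC -2.59 ± 0.11, edgeR adjusted p = 1.75e-11). Entpd1 and Lilr4b were not called, at log2 fold changes of 0.98 and -1.15. Entpd1, which encodes CD39, was called in 10 of 18 alternatives (adjusted p 0.0336 to 0.182 over all of them), and Lilr4b had a log2FC of -0.30 without effector replicate 2. Levels at day 14 lay above every day 4 value for Pdcd1, at 646, 756 and 688 CPM, and for Havcr2, at 1092, 1190.2 and 792 CPM.

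Costimulatory receptors moved in both directions. Of 11 tested members 6 rose and 3 fell, with a median log2 fold change of 0.71. Tnfrsf9 (ENSMUSG00000028965.13, chromosome 4, 150914562 to 150946102), which encodes 4-1BB, had 419, 377 and 408 CPM in day 4 libraries, against 5.75, 6.28 and 6.81 CPM in effector libraries (63.9-fold higher, log2FC 5.998 ± 0.16, edgeR adjusted p = 8.44e-14). Tnfrsf4 (ENSMUSG00000029075.6, chromosome 4, 156013843 to 156016612), which encodes OX40, had 204, 198 and 210.1 CPM in day 4 libraries, against 5.75, 7.31 and 7.58 CPM in effector libraries (29.7-fold higher, log2FC 4.89 ± 0.15, edgeR adjusted p = 5.18e-13). Crtam, an adhesion receptor of activated cytotoxic cells, had 258, 320.3 and 267 CPM in day 4 libraries, against 23.1, 24.8 and 24.1 CPM in effector libraries (log2FC 3.55 ± 0.20, edgeR adjusted p = 3.92e-09). Replicates of each group lay close together for all 3. Cd27 (ENSMUSG00000030336.14), a costimulator of naive and memory cells, fell and had 452, 402 and 438 CPM in day 4 libraries, against 846, 836 and 818 CPM in effector libraries (1.94-fold lower, log2FC -0.95 ± 0.08, edgeR adjusted p = 6.42e-08). Cd2 (-0.38 ± 0.11) and Cd226 (-1.06 ± 0.12) were the others that fell (log2FC), and Cd28 (0.22) and Slamf7 (0.71) did not pass. Cd2 was not called without effector replicate 3 (edgeR adjusted p = 0.0681). Cd28 was called in 9 of 18 alternatives (adjusted p 0.0113 to 0.167 over all of them) and Slamf7 in 2 of 18 alternatives (adjusted p 0.00761 to 0.25 over all of them).

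**Figure D4:**
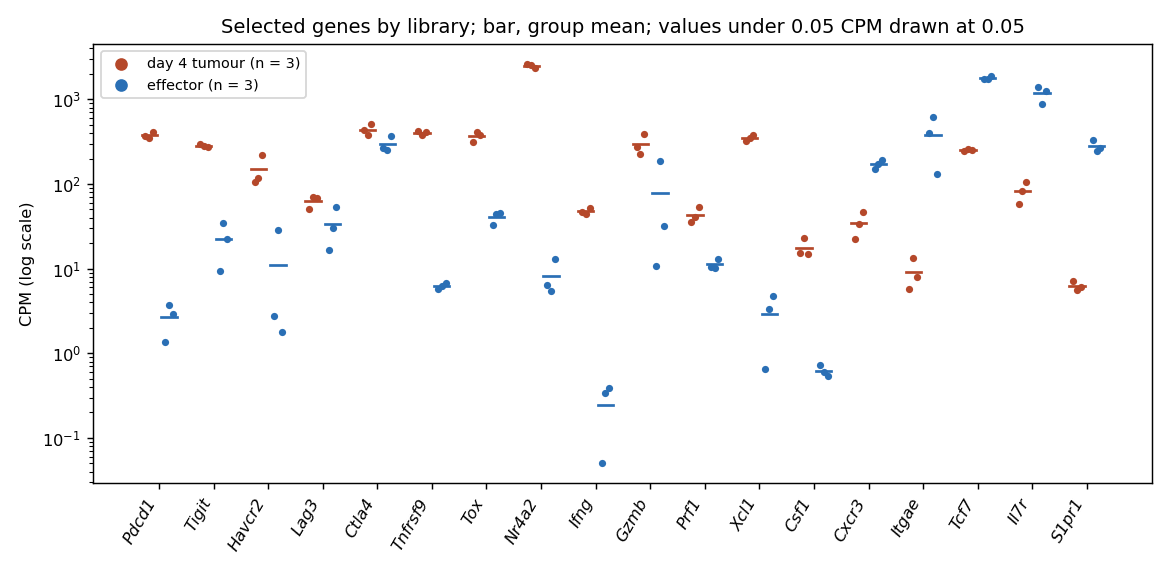
CPM (log axis) of 18 selected receptor, factor, cytokine and homing genes in the 3 day 4 tumour libraries (left of each pair, red) and the 3 effector libraries (right, blue); points are libraries, bars are group means, and values under 0.05 CPM are drawn at 0.05. Lag3 alone overlaps between the groups among these 18, and the effector points of Havcr2 and Gzmb are pulled apart by replicate 2.

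Brakes on receptor and cytokine signals moved in both directions. Of 22 tested members 14 rose and 7 fell, with a median log2 fold change of 1.10. Without effector replicate 2, 15 rose and 7 fell, with a median of 1.97. The members with the largest changes were higher: Dusp4, a nuclear MAP kinase phosphatase (ENSMUSG00000031530.6, chromosome 8, 34807297 to 34819894), had 317, 271 and 263 CPM in day 4 libraries, against 0.647, 1.12 and 0.774 CPM in effector libraries (337-fold higher, log2FC 8.40 ± 0.18, edgeR adjusted p = 5.68e-15). Rgs16 (ENSMUSG00000026475.7, chromosome 1, 153740349 to 153745468), which shortens G protein signals, had 416, 398 and 393 CPM in day 4 libraries, against 2.16, 3.10 and 2.24 CPM in effector libraries (162-fold higher, log2FC 7.34 ± 0.16, edgeR adjusted p = 5.68e-15). Rgs2 had 338, 224 and 251 CPM in day 4 libraries, against 2.88, 3.53 and 1.55 CPM in effector libraries (log2FC 6.68 ± 0.25, edgeR adjusted p = 2.67e-10). No effector library exceeded 3.53 CPM for any of the 3. Dgka (ENSMUSG00000025357.8, chromosome 10, 128720134 to 128744855), a diacylglycerol kinase that dampens receptor signals and marks resting cells, went the other way, with 186, 196 and 195 CPM in day 4 libraries, against 2106, 2022 and 1962 CPM in effector libraries (10.6-fold lower, log2FC -3.40 ± 0.13, edgeR adjusted p = 5.14e-12).

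Genes of naive and stem-like T cells were lower at day 4. Of 19 tested members 2 rose and 15 fell, with a median log2 fold change of -2.71. Tcf7 (ENSMUSG00000000782.16, chromosome 11, 52252371 to 52283014), which encodes TCF-1, had 243, 259 and 254 CPM in day 4 libraries, against 1748, 1725 and 1863 CPM in effector libraries (7.05-fold lower, log2FC -2.82 ± 0.33, edgeR adjusted p = 6.92e-05). Il7r (ENSMUSG00000003882.5, chromosome 15, 9505788 to 9530176), the receptor of the survival cytokine IL-7, had 57.8, 82.4 and 104 CPM in day 4 libraries, against 1410.0, 884 and 1251 CPM in effector libraries (14.5-fold lower, log2FC -3.86 ± 0.43, edgeR adjusted p = 5.44e-05). Effector replicate 2 had the lowest effector value of Il7r, and it too lay far above each day 4 library. Satb1, a chromatin organiser of T cells, fell with 534, 308 and 323 CPM in day 4 libraries, against 1833, 1581 and 1583 CPM in effector libraries (log2FC -2.10 ± 0.26, edgeR adjusted p = 5.73e-05). Naive libraries held 1115, 1187 and 1245 CPM of Tcf7 and 898, 662 and 735 CPM of Il7r, below the effector libraries for Tcf7. Ccr7 (ENSMUSG00000037944.8), which guides cells to lymph nodes, rose against the rest of its list and had 668, 552 and 488 CPM in day 4 libraries, against 235, 210.0 and 177 CPM in effector libraries (log2FC 1.46 ± 0.23, edgeR adjusted p = 0.00025), and Dapl1 rose too (1.18 ± 0.38 as log2FC; not called without effector replicate 1, without effector replicate 2 or without day 4 replicate 3, edgeR adjusted p = 0.0569, 0.0615 and 0.0507). Slamf6 and Cxcr5, often used as markers of stem-like exhausted cells, did not pass, at log2 fold changes of 0.11 and -0.07; that of Cxcr5 was 0.53 without effector replicate 3.

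Cytotoxic genes were higher in part. Of 17 tested members 10 rose and 1 fell, with a median log2 fold change of 1.79; Gzmd and Gzme did not pass the filter on low counts. Ifng (ENSMUSG00000055170.4, chromosome 10, 118441046 to 118445892), which encodes interferon gamma, had 46.2, 44.8 and 52.4 CPM in day 4 libraries, against 0, 0.344 and 0.387 CPM in effector libraries (197-fold higher, log2FC 7.62 ± 0.43, edgeR adjusted p = 5.74e-09; 8.22 without effector replicate 3). Prf1 (ENSMUSG00000037202.6, chromosome 10, 61297833 to 61304680), the pore-forming perforin, had 35.6, 40.9 and 53.3 CPM in day 4 libraries, against 10.5, 10.1 and 13.2 CPM in effector libraries (3.85-fold higher, log2FC 1.94 ± 0.26, edgeR adjusted p = 4.67e-05), with naive libraries at 39.2, 46.04 and 39.3 CPM. Gzmb (ENSMUSG00000015437.5, chromosome 14, 56258838 to 56262260) had 275, 228 and 385 CPM in day 4 libraries, against 10.9, 189 and 32.3 CPM in effector libraries and missed the threshold (log2FC 1.94 ± 0.84, edgeR adjusted p = 0.0747). Its groups did not overlap, but effector replicate 2 lay near the day 4 values, and without that library Gzmb was called (log2FC 3.78 ± 0.48, edgeR adjusted p = 0.000246). Gzma likewise had most of its effector reads in replicate 2 (7.19, 10.4 and 11.4 CPM in day 4 libraries, against 6.54, 153 and 4.49 CPM in effector libraries) and was not called. Its log2FC was -2.49, 0.80 without effector replicate 2, and -2.98 without effector replicate 3, where it was called (edgeR adjusted p = 0.0468).

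Among other granule genes, Gzmc (ENSMUSG00000079186.3), a granzyme of late activated cells, had 22.9, 17.2 and 29.3 CPM in day 4 libraries, against 0, 0.774 and 0.0774 CPM in effector libraries (log2FC 6.41 ± 0.81, edgeR adjusted p = 4.68e-05; ratio 616, 95% interval 110.3 to 24339, over 1 count without effector replicate 2). Gzmf had 0.587, 0.541 and 0.935 CPM and no count in effector libraries (at least 8.78-fold higher, edgeR adjusted p = 0.00266; at least 5.61-fold without effector replicate 1 and 5.83-fold without replicate 3). Nkg7, a granule membrane protein, had 425, 436 and 475 CPM in day 4 libraries, against 134, 172 and 175 CPM in effector libraries (2.78-fold higher, log2FC 1.48 ± 0.12, edgeR adjusted p = 1.44e-08), with naive libraries at 171, 195 and 215 CPM. Lamp1, a lysosomal membrane protein, was the 1 member that fell (-0.34 ± 0.12 as log2FC), and it was not called without effector replicate 1 or 2 or without day 4 replicate 2 or 3 (edgeR adjusted p = 0.0624, 0.081, 0.135 and 0.139). Tnf, another cytokine of effector cells, had a log2 fold change of -0.08 and did not pass.

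Secreted factors showed the highest median of the 23 lists. Of 16 tested members 13 rose and 2 fell, with a median log2 fold change of 5.04 (4.84 with genes of 0 to 3 effector counts set at their bound or ratio). Xcl1 (ENSMUSG00000026573.7, chromosome 1, 164931644 to 164935527), which attracts XCR1-bearing dendritic cells, had 324, 350.0 and 378 CPM in day 4 libraries, against 0.647, 3.35 and 4.80 CPM in effector libraries (121-fold higher, log2FC 6.92 ± 0.53, edgeR adjusted p = 4.07e-06; 7.57 without effector replicate 3). Csf1 (ENSMUSG00000014599.10, chromosome 3, 107741048 to 107760469), the macrophage growth factor, had 15.2, 22.9 and 14.97 CPM in day 4 libraries, against 0.719, 0.602 and 0.542 CPM in effector libraries (28.02-fold higher, log2FC 4.81 ± 0.50, edgeR adjusted p = 2.24e-06). Ccl4 (ENSMUSG00000018930.3, chromosome 11, 83662584 to 83664683), an inflammatory chemokine, had 7.63, 8.47 and 18.5 CPM in day 4 libraries, against 0.359, 3.01 and 1.32 CPM in effector libraries (7.59-fold higher, log2FC 2.92 ± 0.58, edgeR adjusted p = 0.00135; 3.79 without effector replicate 2). In each case all day 4 libraries lay above all effector libraries. Ccl9 had 3.01, 1.32 and 2.67 CPM and no count in effector libraries (at least 29.2-fold higher, edgeR adjusted p = 6.17e-05; at least 18.6- and 19.4-fold without effector replicate 1 and 3). Ccl5 and Flt3l were the members that fell. Ccl5, a chemokine of memory cells, had 24.7, 26.1 and 43.1 CPM in day 4 libraries, against 91.95, 212 and 57.3 CPM in effector libraries (log2FC -1.94 ± 0.57, edgeR adjusted p = 0.0168); its log2 fold change was -1.26 without effector replicate 2, and it was not called without day 4 replicate 1 or 2 (edgeR adjusted p = 0.0596 and 0.0639). Flt3l, a growth factor of dendritic cells, had 10.7, 15.2 and 13.6 CPM in day 4 libraries, against 107, 112 and 103 CPM in effector libraries (log2FC -3.03 ± 0.13, edgeR adjusted p = 1.35e-11). Several of these factors are also made by myeloid cells, whose markers summed to 65.8 to 144 CPM in day 4 and 6.19 to 10.5 CPM in effector libraries, and the part of those cells was not tested.

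Chemokine receptors divided. Of 10 tested members 4 rose and 6 fell, with a median log2 fold change of -1.19; Ccr10 did not pass the filter. Ccr6 (ENSMUSG00000040899.14), the receptor of CCL20, had 132, 158 and 143 CPM in day 4 libraries, against 0.144, 1.46 and 0.619 CPM in effector libraries (201-fold higher, log2FC 7.65 ± 0.58, edgeR adjusted p = 1.76e-06; 8.56 without effector replicate 2). Cx3cr1, a receptor of cytotoxic T cells and of macrophages, had 9.90, 7.75 and 17.3 CPM in day 4 libraries, against 0, 0.0860 and 0 CPM in effector libraries (523 against 1 count; ratio 445, 95% interval 79.4 to 17593; 284 without effector replicate 1, at least 103-fold without replicate 2 and 295 without replicate 3). Both rose with Ccr8 and Cxcr4. Cxcr3 (ENSMUSG00000050232.6, chromosome X, 101731535 to 101734269), which follows interferon-induced chemokines into inflamed tissue, had 22.3, 34.1 and 46.9 CPM in day 4 libraries, against 151, 175 and 194 CPM in effector libraries (5.03-fold lower, log2FC -2.33 ± 0.38, edgeR adjusted p = 0.000491). Cxcr6, the receptor of CXCL16, had 34.7, 54.5 and 91.3 CPM in day 4 libraries, against 143, 141 and 173 CPM in effector libraries (2.53-fold lower, log2FC -1.34 ± 0.33, edgeR adjusted p = 0.00655), and at day 14 533, 539 and 389 CPM. Day 4 values of both were thus below every effector value. With effector replicate 2 left out, 4 chemokine receptors rose and 4 fell, and Ccr2 was among those then not called (edgeR adjusted p = 0.134); it was called in 7 of 18 alternatives.

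Integrins shifted between chains. Of 14 tested members 7 rose and 3 fell, with a median log2 fold change of 0.63. Itgb1 (ENSMUSG00000025809.15, chromosome 8, 128685654 to 128733200), the beta-1 chain that pairs into receptors for extracellular matrix, had 1237, 1709 and 1509 CPM in day 4 libraries, against 71.2, 109 and 185 CPM in effector libraries (12.2-fold higher, log2FC 3.61 ± 0.37, edgeR adjusted p = 3.01e-05). Itgb7 (ENSMUSG00000001281.10, chromosome 15, 102215995 to 102231944), the partner of Itgae and of the gut-homing alpha-4 chain, had 26.8, 28.8 and 24.2 CPM in day 4 libraries, against 333, 356 and 328 CPM in effector libraries (12.7-fold lower, log2FC -3.67 ± 0.34, edgeR adjusted p = 9.82e-06). Both chains of CD103 were thus lower, while the beta-1 chain was higher. Fibroblast and melanoma markers were also higher in day 4 than in effector libraries, and their part in Itgb1 was not tested. The fibroblast list summed to 165 to 299.9 CPM in day 4 and 0.935 to 1.70 CPM in effector libraries, most of it from Fn1. Ahr, a receptor of tryptophan metabolites and a residency factor, had 13.1, 22.8 and 23.5 CPM in day 4 libraries, against 1.22, 1.81 and 1.47 CPM in effector libraries (log2FC 3.73 ± 0.29, edgeR adjusted p = 1.46e-08). Cd44 belongs to the list and was the gate of the tumour sort, so its difference (2.49 ± 0.21) is no finding. It is still counted among the 7 that rose and in the median.

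Cytokine receptors were more often lower. Of 20 tested members 6 rose and 13 fell, with a median log2 fold change of -0.82. The IL-18 receptor rose with both chains: Il18rap had 488, 552 and 532 CPM in day 4 libraries, against 55.1, 82.7 and 62.9 CPM in effector libraries (7.84-fold higher, log2FC 2.97 ± 0.39, edgeR adjusted p = 0.000148). Il18r1 had 789, 923 and 973 CPM in day 4 libraries, against 119.7, 176 and 169.6 CPM in effector libraries (5.77-fold higher, log2FC 2.53 ± 0.36, edgeR adjusted p = 0.000232). Il2ra (ENSMUSG00000026770.5, chromosome 2, 11642807 to 11693193) had 279.9, 266 and 301 CPM in day 4 libraries, against 101, 193 and 188 CPM in effector libraries (log2FC 0.81 ± 0.27, edgeR adjusted p = 0.0222; not called in the unfiltered fit, edgeR adjusted p = 0.0514). All day 4 libraries held more of these 3 chains than any effector library. Il2rb, the beta chain shared with the IL-15 receptor, had 657, 573 and 916 CPM in day 4 libraries, against 305, 421 and 412 CPM in effector libraries (1.88-fold higher, log2FC 0.91 ± 0.21, edgeR adjusted p = 0.00325). Ifngr2 (ENSMUSG00000022965.8), the signalling chain of the interferon gamma receptor, had 2.49, 2.40 and 1.40 CPM in day 4 libraries, against 25.5, 20.2 and 32.6 CPM in effector libraries (12.4-fold lower, log2FC -3.63 ± 0.35, edgeR adjusted p = 5.76e-07). Every day 4 value of Ifngr2 was under 20.2 CPM, the lowest effector value. Ifngr1 (-1.60), Ifnar1 (-0.55) and Ifnar2 (-1.80), the other interferon receptor chains of the list, fell too (log2 fold changes).

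Genes of the type I interferon response were lower in day 4 cells. Of 24 tested members 1 rose and 18 fell, with a median log2 fold change of -1.68. Interferon receptors activate a STAT and IRF9 complex that binds repeats of GAAA in promoters. Oas3 (ENSMUSG00000032661.9, chromosome 5, 120753098 to 120777661), a sensor of double-stranded RNA, had 4.84, 10.03 and 4.94 CPM in day 4 libraries, against 50.9, 105 and 93.2 CPM in effector libraries (12.4-fold lower, log2FC -3.64 ± 0.39, edgeR adjusted p = 2.06e-05). Ifit1 (ENSMUSG00000034459.8, chromosome 19, 34640871 to 34650009), which binds viral RNA caps, had 1.47, 2.88 and 3.88 CPM in day 4 libraries, against 20.1, 33.4 and 15.1 CPM in effector libraries (8.24-fold lower, log2FC -3.04 ± 0.49, edgeR adjusted p = 0.000331). Its neighbour Ifit3 had 2.35, 2.34 and 4.01 CPM in day 4 libraries, against 20.8, 34.1 and 12.5 CPM in effector libraries (log2FC -2.95 ± 0.47, edgeR adjusted p = 0.00029). Day 4 values of all 3 stayed below every effector value. Rtp4, an interferon-induced chaperone, had 1.91, 2.16 and 4.74 CPM in day 4 libraries, against 18.9, 40.9 and 16.1 CPM in effector libraries (log2FC -3.10 ± 0.49, edgeR adjusted p = 0.000267). Ifi47, an interferon-induced GTPase, had 97.9, 99.5 and 117 CPM in day 4 libraries, against 447, 487 and 487 CPM in effector libraries (4.52-fold lower, log2FC -2.18 ± 0.20, edgeR adjusted p = 1.65e-06). Ifih1, which encodes the RNA sensor MDA5, was the 1 that rose, with 36.5, 66.4 and 45.2 CPM in day 4 libraries, against 26.5, 42.9 and 26.8 CPM in effector libraries (log2FC 0.63 ± 0.22, edgeR adjusted p = 0.0235). The ranges of Ifih1 overlapped, and it was not called without day 4 replicate 2 (edgeR adjusted p = 0.0811), effector replicate 1 (0.0691) or effector replicate 3 (0.0646). Isg15, a ubiquitin-like protein, had 14.9, 16.5 and 18.8 CPM in day 4 libraries, against 8.05, 13.7 and 10.1 CPM in effector libraries and missed the threshold (log2FC 0.66 ± 0.28, edgeR adjusted p = 0.058). It was called in 9 of 18 alternatives (adjusted p 0.000153 to 0.158 over all of them), among them DESeq2 and the unfiltered fit. Without effector replicate 2 it was called too (log2FC 0.88 ± 0.31, edgeR adjusted p = 0.0278), and 3 members of the list rose and 15 fell.

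To set the sequences beside the values, the 250 bases before the start of 3 genes that fell and of Isg15 are printed 5′ to 3′ on the gene's strand, from RefSeq on GRCm38.p6. Capitals mark matches to GAAANNGAA, searched on both strands, and neighbouring matches can overlap.
Ifit1 (chr19:34640639-34640888, plus strand): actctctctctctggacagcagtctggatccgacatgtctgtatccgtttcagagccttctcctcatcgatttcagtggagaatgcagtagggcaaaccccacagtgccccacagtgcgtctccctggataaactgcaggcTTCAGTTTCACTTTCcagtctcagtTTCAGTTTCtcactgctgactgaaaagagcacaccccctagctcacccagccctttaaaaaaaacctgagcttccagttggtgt
Ifit3 (chr19:34583279-34583528, plus strand): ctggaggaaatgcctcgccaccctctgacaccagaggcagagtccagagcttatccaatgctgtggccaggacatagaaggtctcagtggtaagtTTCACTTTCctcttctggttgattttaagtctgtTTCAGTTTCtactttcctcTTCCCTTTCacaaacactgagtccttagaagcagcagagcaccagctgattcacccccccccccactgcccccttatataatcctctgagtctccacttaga
Oas3 (chr5:120777660-120777909, minus strand): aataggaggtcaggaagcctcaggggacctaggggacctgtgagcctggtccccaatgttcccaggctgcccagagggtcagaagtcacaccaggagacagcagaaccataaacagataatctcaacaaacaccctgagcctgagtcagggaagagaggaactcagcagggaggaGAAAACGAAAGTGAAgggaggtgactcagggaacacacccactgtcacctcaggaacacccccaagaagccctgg
Isg15 (chr4:156200819-156201068, minus strand): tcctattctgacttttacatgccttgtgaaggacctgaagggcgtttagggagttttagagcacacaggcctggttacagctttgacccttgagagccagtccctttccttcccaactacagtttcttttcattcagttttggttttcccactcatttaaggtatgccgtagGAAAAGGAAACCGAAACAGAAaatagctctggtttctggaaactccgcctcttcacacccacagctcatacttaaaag
The motif lay in 11 of 20 promoter windows of the interferon list (55%; 18 of 24 genes matched, windows from 250 bases before to 50 after the start), against 8.56% of all 32851 windows. Matches began 109, 103 and 84 bases before the start of Ifit1, 155, 121 and 102 before that of Ifit3, 75 and 69 before that of Oas3 and 78, 72 and 66 before that of Isg15. Starts here are those of RefSeq, and the windows of Ifit1 and Oas3 reach into the gene spans given above. The 4 promoters thus hold 2 or 3 matches each, whether the gene fell or not. A match is a description of these letters, not a bound site.

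DNA replication genes were higher at day 4 without exception in the list. All 19 tested members rose (median log2 fold change 2.69), and Fen1 did not pass the filter. Cdc6, which loads the replicative helicase, had 68.3, 49.7 and 48.4 CPM in day 4 libraries, against 0.863, 6.37 and 1.39 CPM in effector libraries (19.8-fold higher, log2FC 4.31 ± 0.56, edgeR adjusted p = 9.65e-05; 5.61 without effector replicate 2). Gins2, a helicase subunit, had 66.5, 60.8 and 70.2 CPM in day 4 libraries, against 2.88, 5.85 and 2.86 CPM in effector libraries (17.2-fold higher, log2FC 4.10 ± 0.24, edgeR adjusted p = 6.65e-10). Gins1, of the same complex, had 21.5, 21.3 and 22.5 CPM in day 4 libraries, against 0.288, 1.89 and 2.09 CPM in effector libraries (log2FC 3.95 ± 0.40, edgeR adjusted p = 6.01e-07). The effector libraries held little of any of these 3 genes. Pcna (ENSMUSG00000027342.14, chromosome 2, 132249162 to 132253314), the sliding clamp of DNA polymerases, had 655, 520.3 and 627 CPM in day 4 libraries, against 112, 149.9 and 117 CPM in effector libraries (4.76-fold higher, log2FC 2.25 ± 0.12, edgeR adjusted p = 1.72e-10). The median CPM over the 19 genes was 137, 146 and 126 in day 4 libraries, against 20.6, 28.5 and 19.96 in effector libraries.

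Mitotic genes showed the same direction and a strong part of effector replicate 2. All 20 members rose (median 3.20), each with day 4 libraries above the effector range. Mki67 (ENSMUSG00000031004.8, chromosome 7, 135689784 to 135716361), the Ki-67 protein, had 2093, 2224 and 2178 CPM in day 4 libraries, against 42.8, 579.6 and 60.8 CPM in effector libraries (9.52-fold higher, log2FC 3.25 ± 0.99, edgeR adjusted p = 0.0194). Its log2 fold change was 5.38 without effector replicate 2 (edgeR adjusted p = 0.000111). Fitted on the 6 libraries alone, Mki67 was not called (3.27, edgeR adjusted p = 0.0858). Bub1, a checkpoint kinase, had 106, 116 and 119 CPM in day 4 libraries, against 0.216, 17.98 and 3.48 CPM in effector libraries (log2FC 4.02 ± 0.85, edgeR adjusted p = 0.00321; 5.97 without that library). Cdk1, the kinase that drives mitosis, had 94.5, 94.01 and 92.9 CPM in day 4 libraries, against 2.16, 15.4 and 3.71 CPM in effector libraries (log2FC 3.76 ± 0.65, edgeR adjusted p = 0.001; 5.00 without it). Bub1b had 139.9, 152 and 135 CPM in day 4 libraries, against 3.24, 28.3 and 4.64 CPM in effector libraries (log2FC 3.59 ± 0.82, edgeR adjusted p = 0.00471; 5.17 without it). Effector replicate 2 was the highest effector library for each of these 4 genes and still below every day 4 library. The median CPM over the list was 111, 111 and 119 in day 4 libraries, against 3.06, 27.2 and 4.18 in effector libraries. Without effector replicate 2 all 20 rose with a median of 5.09, and in the fit of the 6 libraries alone 11 of 20 did. Melanoma cells divide too and their markers were higher at day 4 (sums of 887 to 1324 CPM in day 4 and 44.1 to 46.4 CPM in effector libraries), and their part in these counts was not tested.

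**Figure D5:**
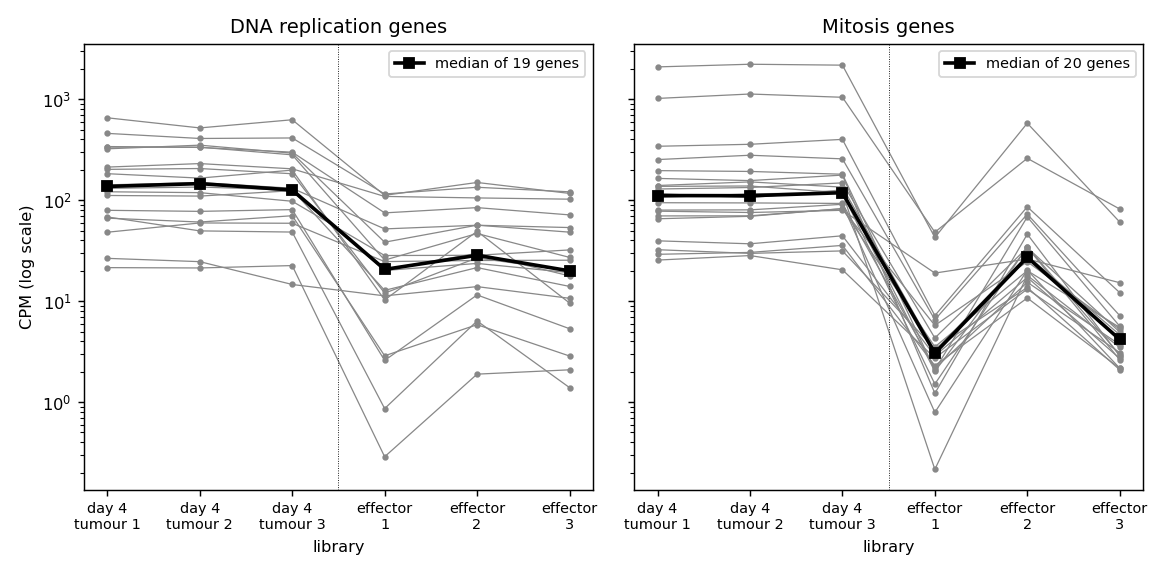
CPM (log axis) of the 19 DNA replication genes and the 20 mitosis genes in each library, day 4 tumour left of the dotted line and effector right of it; grey lines join the values of a gene and black squares are medians. The 3 day 4 libraries lie at one level, and effector replicate 2 lies above the other effector libraries, most of all for mitosis genes.

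Genes of glucose use were mostly higher in day 4 cells. Of 19 tested members 13 rose and 1 fell, with a median log2 fold change of 1.505. Hk2 (ENSMUSG00000000628.10, chromosome 6, 82725025 to 82774454), the inducible hexokinase, had 93.2, 107 and 85.9 CPM in day 4 libraries, against 7.76, 4.90 and 12.1 CPM in effector libraries (11.5-fold higher, log2FC 3.52 ± 0.24, edgeR adjusted p = 3.15e-08). Tpi1, triosephosphate isomerase, had 455, 389 and 392 CPM in day 4 libraries, against 27.9, 31.998 and 49.7 CPM in effector libraries (11.3-fold higher, log2FC 3.49 ± 0.17, edgeR adjusted p = 9.03e-10). Slc16a3, an exporter of lactate, had 39.4, 27.3 and 26.4 CPM in day 4 libraries, against 1.94, 4.47 and 4.95 CPM in effector libraries (8.22-fold higher, log2FC 3.04 ± 0.29, edgeR adjusted p = 2.71e-07). All 3 were low in each effector library. Gapdh (ENSMUSG00000057666.18, chromosome 6, 125161715 to 125166467), of the pay-off phase of glycolysis, had 1216, 1165 and 1180.3 CPM in day 4 libraries, against 268, 326 and 333 CPM in effector libraries (3.84-fold higher, log2FC 1.94 ± 0.10, edgeR adjusted p = 1.15e-10). No day 4 library overlapped an effector library for these 4 genes. The glucose transporter Slc2a3 fell (153, 134 and 141 CPM in day 4 libraries, against 312, 288 and 435 CPM in effector libraries, log2FC -1.28 ± 0.13, edgeR adjusted p = 2.28e-07), while Slc2a1, the other transporter of the list, rose (1.29 ± 0.19). Hk1, Gpi1, Pfkp, Pfkm and Aldoc did not pass. Without effector replicate 2, Gpi1 was called higher and Pfkm lower (edgeR adjusted p = 0.00386 and 0.0499), and without effector replicate 3 Aldoc was called higher (log2FC 1.56 ± 0.30, edgeR adjusted p = 0.00037).

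Targets of the hypoxia response were mixed. Of 18 tested members 10 rose and 3 fell, with a median log2 fold change of 0.66; Adm did not pass the filter. Car9 (ENSMUSG00000028463.14, chromosome 4, 43506966 to 43513729), a membrane carbonic anhydrase and classical target of HIF-1, had 12.2, 15.2 and 18.2 CPM in day 4 libraries, against 1.22, 0.430 and 1.24 CPM in effector libraries (15.4-fold higher, log2FC 3.95 ± 0.53, edgeR adjusted p = 2.22e-05). Ndrg1, a stress-induced protein, had 76.1, 45.8 and 46.7 CPM in day 4 libraries, against 7.55, 7.83 and 13.1 CPM in effector libraries (5.92-fold higher, log2FC 2.57 ± 0.35, edgeR adjusted p = 4.21e-05). Groups stayed apart for both. Pdk1 (ENSMUSG00000006494.11), a kinase that inhibits pyruvate dehydrogenase, went the other way. It had 96.3, 79.3 and 68.7 CPM in day 4 libraries, against 343, 312 and 259 CPM in effector libraries (3.74-fold lower, log2FC -1.90 ± 0.14, edgeR adjusted p = 7.81e-09). Kdm3a (-0.88 ± 0.10) and Egln3 (-0.78 ± 0.22) fell too (log2FC). Egln3 was not called without effector replicate 3 (edgeR adjusted p = 0.06). Bnip3l, a mitophagy receptor, had 202, 195 and 197 CPM in day 4 libraries, against 205, 189 and 185 CPM in effector libraries and missed the threshold (log2FC 0.04 ± 0.08, edgeR adjusted p = 0.719). When effector replicate 2 was left out, 8 members rose and 4 fell. The core motif of HIF binding, ACGTG on either strand, lay in 14 of 23 promoter windows of the list (60.9%, 15 of 18 genes matched), against 19.6% of all windows. Of the 12 genes with a match, Bnip3, Car9, Egln1, Higd1a, Hilpda, P4ha1, P4ha2 and Pfkfb3 rose. Egln3 fell, and Ankrd37, Mxi1 and Vegfa were not called. Matches thus lay in promoters of genes that rose, fell or were not called. The promoter of Car9, shown as the member with the highest fold change and with the motif in capitals, reads as follows.
Car9 (chr4:43506776-43507025, plus strand): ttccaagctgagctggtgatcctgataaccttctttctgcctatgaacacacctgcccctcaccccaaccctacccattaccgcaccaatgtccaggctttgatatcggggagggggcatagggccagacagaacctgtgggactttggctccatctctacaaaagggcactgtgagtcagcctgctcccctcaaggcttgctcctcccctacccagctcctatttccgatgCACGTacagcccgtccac
The match began 18 bases before the RefSeq start, which lies inside the gene span given above.

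Respiratory chain genes rose by smaller amounts. Of 20 tested members 16 rose and 0 fell, with a median log2 fold change of 0.62, and 12 of 20 intervals lay inside -1 to 1; Atp5o did not pass the filter. Cycs, cytochrome c, had 72.5, 57.97 and 64.5 CPM in day 4 libraries, against 13.9, 16.6 and 21.4 CPM in effector libraries (3.75-fold higher, log2FC 1.91 ± 0.14, edgeR adjusted p = 9.13e-09). Atp5b, the catalytic beta subunit of ATP synthase, had 1147, 1099.6 and 1244 CPM in day 4 libraries, against 442, 469 and 452 CPM in effector libraries (2.56-fold higher, log2FC 1.36 ± 0.08, edgeR adjusted p = 9.65e-10). Cox7a2, of complex IV (1.51 ± 0.12), and Ndufa4 (1.43 ± 0.13) were the others with the largest changes (log2FC). Replicates of each group lay close together, and the groups did not overlap for any of the 4. Sdha, Ndufa9 and Ndufv1 were among the 4 that did not pass; Ndufa9 was called in 6 of 18 alternatives and Ndufv1 in 8 of 18 alternatives.

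The sterol pathway was higher as well. Of 20 tested members 16 rose and 0 fell, with a median log2 fold change of 1.11. Idi1 (ENSMUSG00000058258.14, chromosome 13, 8885501 to 8892451), isopentenyl-diphosphate isomerase, had 44.5, 37.3 and 42.5 CPM in day 4 libraries, against 2.30, 4.30 and 4.64 CPM in effector libraries (11.1-fold higher, log2FC 3.47 ± 0.22, edgeR adjusted p = 1.13e-09). Cyp51, a demethylase of lanosterol, had 216, 162 and 148 CPM in day 4 libraries, against 16.9, 39.8 and 22.4 CPM in effector libraries (6.67-fold higher, log2FC 2.74 ± 0.29, edgeR adjusted p = 1.26e-05). Srebf2 (ENSMUSG00000022463.8, chromosome 15, 82147181 to 82205379), the factor that drives the pathway when sterols are low, differed little (180.4, 173 and 155 CPM in day 4 libraries, against 134, 166 and 117 CPM in effector libraries, log2FC 0.28 ± 0.11, edgeR adjusted p = 0.0348). Its ranges overlapped, and the call was lost in a fit of the 6 libraries alone (edgeR adjusted p = 0.0571) or without day 4 replicate 1 (0.103), effector replicate 1 (0.0516) or effector replicate 3 (0.0824). The sterol element ATCACNCCA lay in 1 of 17 promoter windows (5.88%), that of Srebf2, against 0.868% of all windows.

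Nutrient transporters followed. Of 12 tested members 9 rose and 1 fell, with a median log2 fold change of 1.39; Slc7a11 did not pass the filter. Slc7a1, an arginine transporter (ENSMUSG00000041313.14), had 383, 372 and 363 CPM in day 4 libraries, against 57.7, 43.1 and 58.9 CPM in effector libraries (6.99-fold higher, log2FC 2.81 ± 0.12, edgeR adjusted p = 1.75e-11). Slc7a5, the large neutral amino acid transporter, had 82.1, 81.8 and 98.1 CPM in day 4 libraries, against 12.4, 7.40 and 19.1 CPM in effector libraries (6.70-fold higher, log2FC 2.74 ± 0.27, edgeR adjusted p = 3.85e-06). Slc38a1, which carries glutamine, rose by less, with 401, 382 and 354 CPM in day 4 libraries, against 284, 287 and 307 CPM in effector libraries (log2FC 0.37 ± 0.08, edgeR adjusted p = 0.00063). Slc6a9, a glycine transporter, had 0.733, 1.20 and 1.60 CPM at day 4 and 1 effector count (ratio 45.9, 95% interval 7.90 to 1846; at least 9.77-fold without effector replicate 1 and 30.5 without replicate 3). Slc43a1 was the member that fell (-2.33 ± 0.28). Myc (ENSMUSG00000022346.16, chromosome 15, 61985391 to 61990374), the factor that drives growth and nutrient uptake in activated T cells, had 93.9, 139 and 135 CPM in day 4 libraries, against 85.9, 88.9 and 130.4 CPM in effector libraries but missed the threshold (log2FC 0.27 ± 0.20, edgeR adjusted p = 0.249). Its ranges overlapped, and it was called without effector replicate 3 (log2FC 0.55 ± 0.18, edgeR adjusted p = 0.0217) and in the unfiltered fit (edgeR adjusted p = 0.0209).

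Chaperones of the endoplasmic reticulum and the cytosol were higher. Of 18 genes of the unfolded protein and integrated stress response 15 rose and 3 fell (median 0.98); Chac1 did not pass the filter. Hspa5 (ENSMUSG00000026864.13, chromosome 2, 34771970 to 34777547), the ER chaperone BiP, had 1809, 1548 and 1336 CPM in day 4 libraries, against 334, 325 and 393 CPM in effector libraries (4.46-fold higher, log2FC 2.16 ± 0.14, edgeR adjusted p = 1.09e-08). Atf3, a stress-induced factor, had 4.99, 2.94 and 2.41 CPM in day 4 libraries, against 0.0719, 0.344 and 0.387 CPM in effector libraries (log2FC 3.67 ± 0.61, edgeR adjusted p = 6.89e-05). Trib3 (ENSMUSG00000032715.9), a pseudokinase induced by ATF4 and CHOP, was lower with 0.440, 1.14 and 0.601 CPM in day 4 libraries, against 12.1, 11.01 and 11.4 CPM in effector libraries (15.4-fold lower, log2FC -3.94 ± 0.47, edgeR adjusted p = 1.81e-06), and Ddit3, which encodes CHOP, fell too (-0.72 ± 0.22; not called without effector replicate 2 or day 4 replicate 2, edgeR adjusted p = 0.0621 and 0.0574), as did Dnajc3 (-0.64 ± 0.08). Of 11 heat shock genes 9 rose and none was called lower (median 1.77); Hspb1 did not pass the filter. Hsp90ab1 (ENSMUSG00000023944.14, chromosome 17, 45567775 to 45573271), the constitutive cytosolic HSP90, had 5388, 5209 and 4533 CPM in day 4 libraries, against 1389, 1458 and 1580.4 CPM in effector libraries (3.42-fold higher, log2FC 1.77 ± 0.10, edgeR adjusted p = 2.09e-10). Bag3, a co-chaperone, had 39.2, 42.8 and 39.9 CPM in day 4 libraries, against 6.47, 7.48 and 13.5 CPM in effector libraries (log2FC 2.15 ± 0.28, edgeR adjusted p = 1.92e-05). Hspa1a and Hspa1b, the inducible HSP70 genes, are near-identical and their counts uncertain. Their log2FC was 4.90 and 2.44. With effector replicate 2 left out, Hspa1a had a ratio of 55.5 (95% interval 15.1 to 461) and Hspa1b a log2FC of 3.08.

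Ribosomal protein genes lay near the middle of all genes. Of 22 tested members 10 rose and 3 fell, with a median log2 fold change of 0.21, and 20 of 22 intervals lay inside -1 to 1. Rps2 had 1110.0, 1016 and 1227 CPM in day 4 libraries, against 514, 489.7 and 554 CPM in effector libraries (2.15-fold higher, log2FC 1.11 ± 0.10, edgeR adjusted p = 1.37e-07), and Rpl13a (0.72 ± 0.20), Rpl7a (0.64 ± 0.09) and Rps4x (0.25 ± 0.09) rose by less (log2FC). Rpl18, Rps16 and Rpl19 fell (log2FC -0.29, -0.32 and -0.37). With effector replicate 1, effector replicate 3 or day 4 replicate 2 left out, 1 member was called lower. Many of these genes have processed copies in the genome, so their counts are uncertain.

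The BCL-2 family, which holds survival proteins and proteins that promote cell death, changed in both directions. Of 13 tested members 7 rose and 2 fell, with a median log2 fold change of 0.42; Bik did not pass the filter. Bcl2a1d, an A1 protein that NF-kappaB induces (ENSMUSG00000099974.1, chromosome 9, 88723285 to 88731914), had 87.6, 89.3 and 105 CPM in day 4 libraries, against 0.647, 1.89 and 1.62 CPM in effector libraries (68.5-fold higher, log2FC 6.10 ± 0.27, edgeR adjusted p = 2.1e-10). Bcl2a1b had 12.6, 12.3 and 12.8 CPM in day 4 libraries, against 0.216, 0.602 and 0.309 CPM in effector libraries (log2FC 5.07 ± 0.37, edgeR adjusted p = 6.07e-09); the A1 genes are near-identical copies and the split between them is uncertain. Bcl2l1 (ENSMUSG00000007659.18, chromosome 2, 152780668 to 152831728), which encodes BCL-XL, had 40.2, 37.2 and 35.6 CPM in day 4 libraries, against 3.31, 4.21 and 1.62 CPM in effector libraries (12.4-fold higher, log2FC 3.63 ± 0.28, edgeR adjusted p = 1.74e-08). Mcl1 (ENSMUSG00000038612.16, chromosome 3, 95658788 to 95663176), a short-lived survival protein, was lower, with 269, 239 and 264 CPM in day 4 libraries, against 464, 470.0 and 522 CPM in effector libraries (1.89-fold lower, log2FC -0.92 ± 0.08, edgeR adjusted p = 5.4e-08). For these 4 genes no day 4 value fell among the effector values. Bcl2, the founding survival member, did not pass (log2FC 0.31 ± 0.15, edgeR adjusted p = 0.0949); it was called in 7 of 18 alternatives (adjusted p 0.00175 to 0.213 over all of them). Of members that promote cell death, Bcl2l11, which encodes BIM, rose and had 229, 165 and 203 CPM in day 4 libraries, against 58.7, 94.6 and 57.5 CPM in effector libraries. Pmaip1, Bak1 and Bid rose too (2.61 ± 0.18, 0.51 ± 0.14 and 0.42 ± 0.16 as log2FC), Bbc3 fell (-1.73 ± 0.50), and Bax, Bad and Bmf did not pass.

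Single markers of the other cell lists were Apoe, a lipid carrier of macrophages (39.6, 39.9 and 55.9 CPM in day 4 libraries, against 4.31, 3.27 and 3.40 CPM in effector libraries; log2FC 3.62 ± 0.32, edgeR adjusted p = 3.91e-07), and Eomes, a T-box factor of NK and CD8 T cells (162, 172 and 107 CPM in day 4 libraries, against 12.4, 23.1 and 22.98 CPM in effector libraries; log2FC 2.92 ± 0.34, edgeR adjusted p = 4.17e-05). Ikzf2, which encodes Helios, had 719, 802 and 707 CPM in day 4 libraries, against 142, 289 and 151 CPM in effector libraries (log2FC 1.94 ± 0.28, edgeR adjusted p = 0.00021). Pecam1, which naive T cells also express, had 80.8, 73.6 and 61.8 CPM in day 4 libraries, against 177, 179 and 186 CPM in effector libraries (log2FC -1.33 ± 0.12, edgeR adjusted p = 4.79e-08). The log2 fold change of Cd74 was 5.09 ± 0.47, or 5.74 without effector replicate 3, and that of Fn1 9.06 ± 0.78. Hbb-bs, a globin whose reads are shared between near-identical copies, had 6.01, 0 and 1.74 CPM in day 4 libraries and no effector count and was not called (edgeR adjusted p = 0.0725, range 0.000518 to 0.187 over the alternatives; 0.022 without day 4 replicate 2).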

How the data were processed

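RNA of sorted or cultured OT-I cells was taken on oligo(dT) beads, and amplified cDNA went into transposase-based libraries for single-end sequencing, per the labels' protocols. The submitters' processing notes name fastp 0.19.6, STAR 2.6.1b and the build GRCm38. Neither the options of counting nor the annotation version is given in the sources used here. The authors deposited raw counts per gene, not normalized. Unstranded counts were used, since the stranded columns split evenly (49.8% to 49.9% on one of them), so reads of overlapping or antisense genes cannot be told apart. The 4 summary lines per table stayed out of library sizes: 20.7% to 30.2% of reads lay outside genes, 5.90% to 7.29% mapped to several places, 3.22% to 3.81% were ambiguous and 4.90% to 5.52% did not map. Multimapping reads were counted for no gene, so near-identical copies (ribosomal protein, HSP70, globin, A1, Ifit, Oas, Gbp, Ifi200, granzyme and class II MHC genes) are uncertain. Of 55401 identifiers, 55141 matched GENCODE M21. The labels describe no molecular identifiers: floors and intervals hold for counting error only.

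Genes were kept by filterByExpr, and library sizes scaled by TMM, in edgeR 4.0.16 (R 4.3.3). All 12 libraries entered 1 robust quasi-likelihood fit of 4 groups with 8 residual degrees of freedom, and the contrast was day 4 over effector, adjusted by Benjamini-Hochberg over 16426 genes. The fit was tested on simulated data. Errors of log2 fold changes are SEs derived from the test: the absolute log2 fold change over the square root of the quasi-likelihood F statistic. The 95% intervals of log2 fold changes rest on these SEs. Where a group has no count, the fold is a bound against 3 counts in that group, and 1 to 3 counts give a ratio with an exact 95% interval.

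The groups, lists and members were chosen with earlier results of these data known. Genes named were the 10 highest and 10 lowest called protein-coding genes whose mean log2 CPM reaches 4 and with groups that do not overlap, the 3 called members of each list with the largest change and its most abundant member, the most abundant day 4 marker of each marker list, and a panel of 22 genes. Members named because they moved against their list or did not pass were chosen after their values were seen. A few genes the rule names are not reported here. Promoters came from RefSeq (GRCm38.p6). Alternatives were DESeq2 1.42.0, its size factors, total counts as scaling, no filter on low counts, the 6 libraries alone, a replicate block and leaving out each library.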

Additional observations from a re-analysis of the deposited data

How the results depend on the processing

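The counts of called genes stayed within 1.5 times the reported 10174 in all 18 alternatives. They were 10276 by DESeq2, 10183 with its size factors, 10144 with total counts as scaling, 10604 of 33120 genes with no filter on low counts and 9396 of 14844 in the fit of the 6 libraries alone. Leaving out 1 library gave 9468 to 10377 genes, with 5227 to 5698 higher, 4217 to 4793 lower and 6206 to 6643 at 2-fold or more. The median log2 fold change of all genes was 0.06 with TMM, 0.11 with DESeq2 size factors and 0.14 with total counts. Of 2300 recomputed values of the 128 genes picked by the rule for names, 2278 kept their direction and call, 17 lost the call, 5 gained it and none reversed; 120 of these genes never changed their call. The other 8 were Havcr2, Mki67, Lag3, Gzmb, Il2ra, Myc, Srebf2 and Hbb-bs. The cause was not tested. Of the 352 other list members, 70 changed their call in at least 1 alternative. Of 1224 counts of list members, 46 moved by over 1.5 times.

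With the replicate number as a block 10011 genes were called, and none of the 128 genes picked by the rule changed its call. Of the 352 other list members, 4 gained a call with the block (Isg15, Cd28, Mx1 and Trac) and 4 lost it (Ccr2, Bnip3, Rsad2 and Cd163), and Gbp5 gained it too. Mki67 had a log2 fold change of 3.96. Replicates with the same number did not deviate together (r of deviations from group means between -0.03 and 0.04 over 3 pairs, 0 of 3 over 0.1), so the numbers were not taken to pair the samples. Day 4 and effector libraries differ in host, time, sort and recovery from tissue or culture as well as in state. Genes with a few effector counts have ratios that turn on single reads, and groups of 3 were not screened for outlying samples.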

Other observations

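Several gene families moved together or apart; they were chosen after their values were seen, and none was tested as a set. The 8 tested GIMAP genes, GTPases of lymphocyte survival that lie side by side on chromosome 6, all fell (median log2 fold change -2.20), from Gimap5 at -0.91 to Gimap3 at -3.10. Of 9 guanylate-binding proteins, GTPases that interferon gamma induces, 8 fell and Gbp5 was not called (median -2.73). Gbp10 had 5.13, 5.05 and 8.02 CPM in day 4 libraries, against 71.97, 204 and 118 CPM in effector libraries (log2FC -4.44 ± 0.62, edgeR adjusted p = 0.000244). These genes were lower while Ifng was higher in the same libraries. The GTPases Tgtp1 (-4.92) and Iigp1 (-4.44), which interferons also induce, were lower too (values are log2FC).

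The Ifi200 family of DNA sensors divided: 4 of 12 rose and 7 fell, where 32.7% of all tested genes rose and 29.2% fell. Ifi213 had 21.6, 25.8 and 31.9 CPM in day 4 libraries, against 648, 749 and 745 CPM in effector libraries (log2FC -4.76 ± 0.17, edgeR adjusted p = 2.75e-11). Ifi206 (-4.42), Ifi214 (-4.74) and Ifi208 (-4.34) fell by similar amounts, while Ifi211 rose (7.84) and Aim2 rose by less (0.78). Ifi205 and Ifi207 rose too, with 49 and 93 counts in day 4 libraries, against 0 and 2 in effector libraries. Family members are close copies on chromosome 1 and reads that map to several were not counted, so single values are uncertain. In the Schlafen family 2 of 7 rose, Slfn5 (1.76) and Slfn9 (1.27), and 3 fell, with Slfn1 lowest (-4.14). MAP kinase phosphatases, of which Dusp1, Dusp2, Dusp4, Dusp5 and Dusp6 also stand in the lists, rose for 8 of 10 members, among them Dusp8 (103 counts in day 4 libraries, none in effector libraries) beside Dusp4, and Dusp7 fell (-2.34).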
